A study of Homo sapiens with 12 samples.

Results

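The genes described here encode laminins and other glycoproteins of the extracellular matrix, together with matricellular proteins, small leucine-rich proteoglycans and the enzymes that cross-link or hydroxylate matrix proteins. They were taken as a fixed list of 55 symbols, matched by Ensembl identifier to the 58381 genes of a count table. The list was chosen with earlier results of these data known. All 55 were found, and 42 of them passed the filter on low counts and were tested, as were 15836 genes in all. The question was how these genes differed between cells that had lost CD44, the receptor for the matrix polysaccharide hyaluronan, and cells that had kept it.

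RNA sequencing was done on Hs578T and MDA-MB-231, both human triple negative breast cancer cell lines of mesenchymal character, with 3 libraries in each of 4 groups. Both groups of each line carried a doxycycline-inducible Cas9 delivered by lentivirus. The CD44 KO cells had also been transfected with guide RNAs against CD44 and sorted as live, CD29-positive and CD44-negative, whereas the CD44 WT cells had received transfection reagent alone and were sorted as CD29-positive and CD44-positive. The KO groups were therefore sorted populations and not clones, and all cells were starved in low serum before RNA was taken. Within a line, KO and WT thus also differed in guide RNA transfection and in the sorting for CD44. Effects of these cannot be told apart from those of CD44 loss. No source states that replicate libraries were grown as separate cultures, and the p-values then measure the spread between these libraries, which may be technical. In one MDA-MB-231 CD44 WT library the column name fitted more than 1 label, so that it has a group but no replicate number.

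The extracellular matrix is a scaffold that cells secrete and then hold on to. Laminins are trimers of an alpha, a beta and a gamma chain that build the sheets of basement membranes, fibronectin and fibrillar collagens form the interstitial network, and fibrillins, fibulins and elastin form elastic fibres. Matricellular proteins such as tenascin-C and the thrombospondins add signals rather than strength, and in breast tumors, cells with mesenchymal character are known to make much of this material themselves.

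The libraries held 10257586 to 19725543 counts assigned to genes. Levels are CPM, counts divided by the TMM-scaled library size, or RPKM, the same per kilobase of exon, differences are log2 fold changes with their standard error, and a gene was called when its edgeR quasi-likelihood p, adjusted over all genes tested by the method of Benjamini and Hochberg, did not exceed 0.01. The targeted gene, CD44, fell in Hs578T from 507 ± 17.6 to 27.3 ± 2.06 CPM (SD, n = 3). In MDA-MB-231 it fell from 362 ± 1.70 to 34.2 ± 5.40 CPM. In RNA from a whole population, fewer cells that express a gene and less RNA per cell cannot be told apart. The summed CPM of 6 mesenchymal markers was higher in the KO libraries of both lines, at 5276 to 5517 against 3997 to 4254 in Hs578T and at 6424 to 7409 against 4827 to 5141 in MDA-MB-231. VIM alone made up most of the mesenchymal sums, at 3862 ± 131 CPM in Hs578T WT and 5041.5 ± 119 CPM in KO. In MDA-MB-231 it held 4896 ± 178 and 6608.5 ± 566 CPM. VIM was called higher in Hs578T (0.38 ± 0.08, edgeR adjusted p = 0.00386) and in MDA-MB-231 (0.43 ± 0.08, adjusted p = 0.00253). TWIST1 rose in Hs578T from 1.47 ± 0.578 to 25.3 ± 2.39 CPM (4.07 ± 0.24, edgeR adjusted p = 1.10e-06). It held 0 counts in MDA-MB-231, where CDH2 was under 1 CPM. ZEB1, ZEB2 and SNAI2 were not called in either line. The summed CPM of 8 epithelial markers was lower in the KO libraries of both lines, at 890.05 to 944 against 976 to 1009.5 in Hs578T and at 978 to 1131.5 against 1219 to 1522 in MDA-MB-231. KRT8 and KRT18, which were not called, made up most of these sums, whereas CLDN4 fell (-1.35 ± 0.22) and ESRP1 rose (0.97 ± 0.21, edgeR adjusted p = 0.00492) in Hs578T. Of 6 leukocyte markers, PTPRC rose in Hs578T CD44 KO, from 0.369 ± 0.179 to 3.78 ± 0.895 CPM. The whole list summed to 5.16 to 6.17 CPM in WT and 7.85 to 9.39 CPM in KO, while CSF1R was at 4.10 ± 0.301 and 4.14 ± 0.334 CPM and the other markers, CD3E, CD14 and ITGAM among them, were under 1 CPM in both groups. In MDA-MB-231 the 5 endothelial markers together held 6.17 to 9.71 CPM in WT and 14.1 to 15.6 CPM in KO, with TEK at 0 in both groups. In Hs578T they held 14.8 to 17.6 CPM in WT and 16.6 to 17.2 CPM in KO, where TEK fell from 3.21 ± 1.03 to 0.193 ± 0.0471 CPM and KDR rose from 3 counts to 58, a ratio of 18.4 with a counting interval of 5.98 to 91.7. The part of these marker differences in the results was not tested. The WT libraries furthest from their own replicates were Hs578T replicate 3 and MDA-MB-231 replicate 1. Without the first, the same number of members, 9, was called in Hs578T, and without the second, 5 in place of 7 were called in MDA-MB-231, where LAMB1 and FBLN1 were lost. Over all genes these fits called 511 higher and 712 lower in Hs578T, and 257 higher and 402 lower in MDA-MB-231.

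In Hs578T, 9 of the 42 tested members were called after loss of CD44, which is 21.4% beside 7.51% of all genes tested. By direction, 3.64% of all genes were called higher and 3.86% lower. LAMA2, NOV (now named CCN3), LUM and MFAP2 rose, and LAMB3, SPOCK1, MATN2, EFEMP1 and LOXL3 fell. In MDA-MB-231, 7 of 42 were called, which is 16.7% beside 4.62% of all genes. By direction, 1.97% of all genes were called higher and 2.65% lower. LAMB1, THBS1 and MFAP2 rose, and SPOCK1, MATN2, FBLN1 and FBLN5 fell. Over the tested members with a fold change, the median on the log2 scale was -0.11 for Hs578T, beside -0.0016 for all genes, and -0.10 for MDA-MB-231, beside -0.0096. SPOCK1, MATN2 and MFAP2 were called in both lines, each in the same direction in both, and 29 tested members were called in neither line. With no filter on low counts 15 members were called in Hs578T, the 9 and ELN, EMILIN2, LAMA5, LOX, P4HA1 and TNC. Without that filter, 1014 of 31268 genes were called higher there and 957 lower. In MDA-MB-231 the count fell to 4 without the WT library that has no number, to 3 without WT replicate 3, KO replicate 1 or KO replicate 3, and to 2 without KO replicate 2. Over all genes the calls there fell too, from 312 higher and 419 lower. They were 275 and 388 without the library that has no number, and 152 and 295 without WT replicate 3. Without KO replicates 1, 2 and 3 they were 176 and 268, 125 and 230, and 177 and 282. THBS1 and MFAP2 were called whichever library was left out. The members lie on 20 chromosomes, and none lies on chromosome 11 between its first base and CD44.

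**Figure D1:**
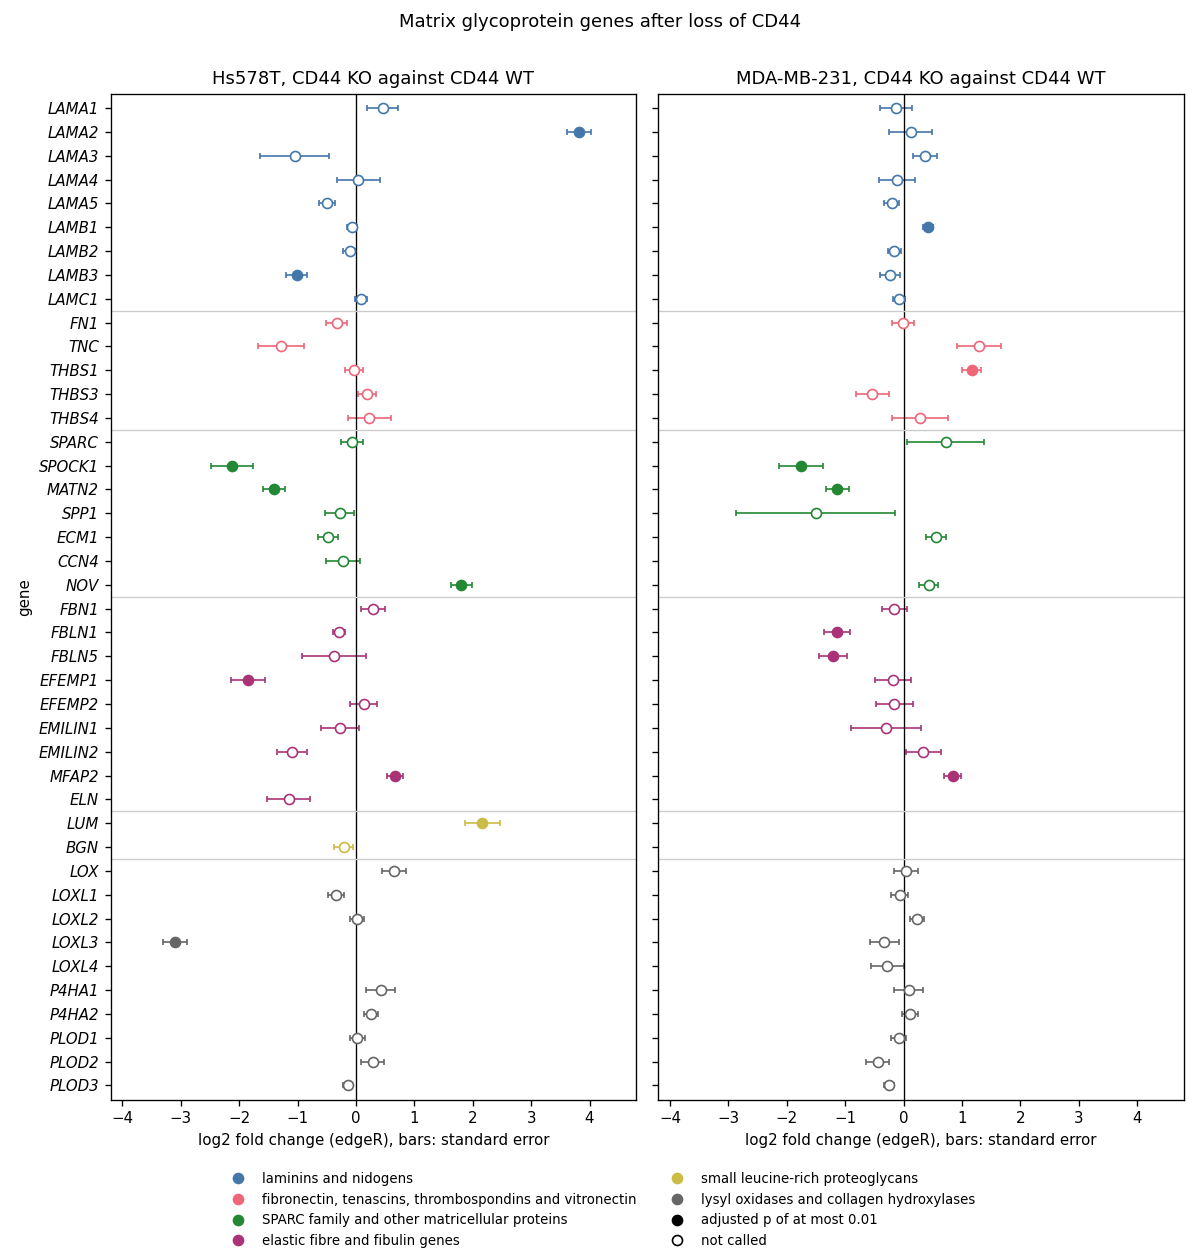
Log2 fold change (x axis, with standard error) of each tested member in CD44 KO against CD44 WT, by class, in Hs578T (left) and MDA-MB-231 (right). Filled points are the 9 and 7 members called, and members with 0 counts in a whole group have no point; the points furthest from 0 are LAMA2 at 3.82 and LOXL3 at -3.10 in Hs578T.

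The DNA before the start is shown for 3 of the 5 members called in both lines or changed at least 8-fold in Hs578T. MFAP2 rose in both lines, and LAMA2 and LOXL3 had the largest changes. Each run is the 250 bases before the RefSeq start (GRCh38.p14), 5′ to 3′ on the gene's strand, with matches to the searched motifs in capitals. MFAP2 lies at chr1:16981584-16981833 on the minus strand, LAMA2 at chr6:128882888-128883137 on the plus strand and LOXL3 at chr2:74553943-74554192 on the minus strand. SPOCK1, also called in both lines, had no entry. In the GRCh38 annotation of the count table SPOCK1 spans chr5:136975298-137598379 on the minus strand, MFAP2 chr1:16974502-16980835, LAMA2 chr6:128883141-129516569 and LOXL3 chr2:74532414-74555690. The RefSeq start lay 3 bases before the annotated start for LAMA2 and 748 bases before it for MFAP2, and 1748 bases inside the annotated gene for LOXL3.
MFAP2: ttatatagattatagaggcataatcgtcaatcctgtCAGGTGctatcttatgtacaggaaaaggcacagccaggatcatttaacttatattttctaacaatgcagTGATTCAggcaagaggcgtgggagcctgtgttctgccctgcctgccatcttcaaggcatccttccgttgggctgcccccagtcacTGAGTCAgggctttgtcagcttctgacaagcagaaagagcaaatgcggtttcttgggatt
LAMA2: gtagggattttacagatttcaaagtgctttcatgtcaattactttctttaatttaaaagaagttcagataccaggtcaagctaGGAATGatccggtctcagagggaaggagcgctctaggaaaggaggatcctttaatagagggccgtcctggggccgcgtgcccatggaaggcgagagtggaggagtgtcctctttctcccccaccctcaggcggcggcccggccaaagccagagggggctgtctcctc
LOXL3: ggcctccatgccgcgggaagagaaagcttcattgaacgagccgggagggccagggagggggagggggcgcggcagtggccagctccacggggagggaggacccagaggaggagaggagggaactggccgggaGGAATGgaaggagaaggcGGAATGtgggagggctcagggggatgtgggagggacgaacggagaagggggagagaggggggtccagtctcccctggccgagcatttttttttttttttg
Motifs were searched on both strands as fixed letters. AP-1 was TGANTCA, the GC box was GGGCGG and the TEAD site was GGAATG. The E-box was CACCTG, the TATA box was TATAAA and the remaining box was CCAAT. The MFAP2 window held 2 AP-1 matches, which begin 145 and 60 bases before the start, and 1 E-box match 214 bases before it. The LAMA2 window held 1 TEAD match, 167 bases before the start, and the LOXL3 window held 2, at 118 and 100 bases. Of 27305 such windows, 6.6% held the AP-1 letters, 11.9% the TEAD letters, 17.5% the E-box letters, 33.0% the CCAAT letters and 11.1% the TATA letters. The 42 members with an entry are not the 42 tested members, since 32 of them were tested. Among the 42 members with an entry, 5 held the AP-1 letters (11.9%), 8 the TEAD letters (19.0%), 26 the GC box (61.9%, beside 42.3% of all windows), 7 the E-box (16.7%), 13 the CCAAT letters (31.0%) and 5 the TATA letters (11.9%). Of the 32 tested, 4 held the AP-1 letters, 6 the TEAD letters and 22 the GC box. The E-box was held by 7 of them, the CCAAT letters by 8 and the TATA letters by 2. A match is only a run of letters, and binding was not measured.

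Of the 9 tested laminin genes, 2 were called in Hs578T and 1 in MDA-MB-231. LAMA2, the alpha-2 chain found in the basement membranes of muscle and peripheral nerve, stood at 4.72, 7.49 and 7.45 CPM in the Hs578T CD44 WT libraries and at 81.1, 116 and 77.7 CPM in CD44 KO. Every KO library was far above every WT library. The log2 fold change was 3.82 ± 0.20 (14.1-fold, edgeR adjusted p = 1.09e-08). In MDA-MB-231 it stayed low, with 1.46, 1.62 and 0.802 CPM in WT and 1.61, 1.38 and 1.28 CPM in KO, and these ranges overlapped. The change differed between the lines by 3.69 ± 0.44 on the log2 scale (edgeR interaction test, adjusted p = 7.88e-05). In Hs578T the median log2 fold change of the 5 tested genes within 1 Mb of LAMA2 was 0.93, and whether they and LAMA2 moved together was not tested. Such medians were also -0.40 for EFEMP1 (12 genes) and -0.39 for LAMB3 (9 genes), which both fell. Those of SPOCK1 and NOV had the opposite sign to the gene, and those of the other members called in Hs578T the same sign.

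LAMB3, the beta-3 chain of the laminin that anchors epithelia, fell in Hs578T. It stood at 133, 105 and 63.9 CPM in WT and 53.0, 50.7 and 46.4 CPM in KO, so that the lowest WT library, replicate 3, was still above all KO libraries. The log2 fold change was -1.01 ± 0.18 (edgeR adjusted p = 0.00129). Without KO replicate 3 it was -0.95 and missed the threshold (adjusted p = 0.0107). In MDA-MB-231, LAMB3 was the most abundant member per length, at 126 ± 8.14 RPKM in WT and 107 ± 0.861 RPKM in KO (SD, n = 3), with 633, 573 and 563 CPM in the WT libraries and 505, 498 and 506 CPM in KO, and was not called (-0.23 ± 0.17, edgeR adjusted p = 0.458). The difference between the lines, -0.78 ± 0.25, did not pass the interaction test (adjusted p = 0.0550).

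LAMB1, the beta-1 chain shared by many laminins, rose in MDA-MB-231 by a small amount with a narrow spread. The WT libraries held 99.4, 101 and 107 CPM and the KO libraries 135, 139 and 136 CPM, with no overlap. The log2 fold change was 0.42 ± 0.09 (edgeR adjusted p = 0.00780). This call was lost when any 1 of the 6 MDA-MB-231 libraries, Hs578T WT replicate 2 or Hs578T KO replicate 1 was left out, where the log2 fold change was 0.39 to 0.45 and the adjusted p 0.0122 to 0.0368. In Hs578T, LAMB1 was several times higher than in MDA-MB-231, at 556, 622 and 659.6 CPM in WT and 569, 649.6 and 540.5 CPM in KO, and was not called.

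The other tested laminins were not called in either line. LAMA5, the alpha-5 chain of most adult basement membranes, was at 260.5, 261 and 230.0 CPM in Hs578T WT and 158, 208 and 168 CPM in KO. These ranges did not overlap, but the adjusted p of 0.0205 missed the threshold (log2 fold change -0.49 ± 0.13). LAMC1, the gamma-1 chain of nearly all laminins outside epithelial anchors, was at 476 ± 10.9 CPM in Hs578T WT and 505 ± 57.6 CPM in KO, and at 180.0 ± 25.6 and 170.4 ± 10.6 CPM in MDA-MB-231. LAMA1, LAMA3, LAMA4 and LAMB2 had log2 fold changes between -1.05 and 0.45 in Hs578T, where LAMA3 gave the lowest from 28 counts in WT and 14 in KO. LAMC3 and the nidogens NID1 and NID2, which link laminin to collagen IV, were under the filter in all groups.

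Counted per length, the alpha chains stood in other proportions in Hs578T CD44 KO than in WT. LAMA5 made up 92.2 ± 0.983% of the summed alpha-chain RPKM in Hs578T CD44 WT and 56.2 ± 2.33% in CD44 KO (SD, n = 3). LAMA2 went from 3.36 ± 0.969% to 39.5 ± 2.08%, and the groups did not overlap. In MDA-MB-231, LAMA5 held 82.1 ± 1.56% in WT and 78.1 ± 2.25% in KO, and LAMA2 stayed under 1% in all libraries. LAMA3, the partner of LAMB3 in the epithelial laminin, held 8.42 ± 1.52% and 12.1 ± 1.07%. Of the beta chains, LAMB1 led in Hs578T with 58.2 ± 6.73% in WT and 63.6 ± 1.70% in KO, and LAMB3 led in MDA-MB-231 with 69.9 ± 2.11% and 66.6 ± 2.33%. These shares are of RNA per exonic length and were not tested, since 3 against 3 libraries cannot give an exact permutation p below 0.10.

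**Figure D2:**
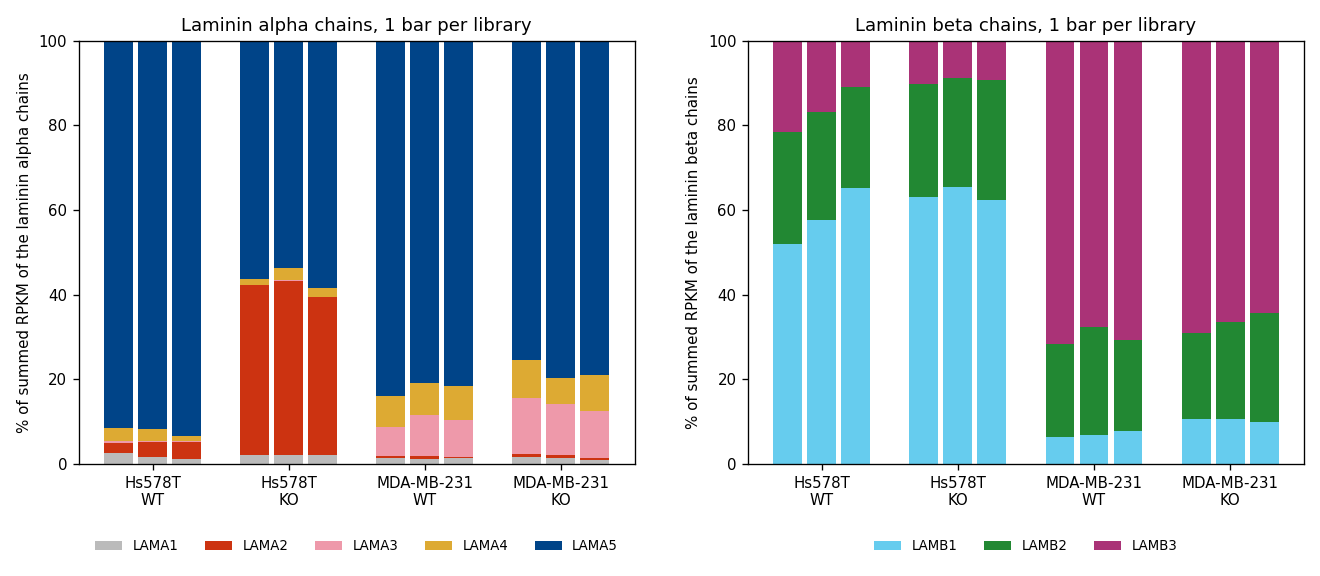
Share of each laminin alpha chain (left) and beta chain (right) in the summed RPKM of the alpha or beta chains (y axis, %), with 1 bar for each of the 12 libraries. LAMA2 takes 37.3% to 41.3% of the alpha chains in the Hs578T CD44 KO libraries and 2.29% to 4.17% in CD44 WT, and LAMB3 takes the largest part of the beta chains in every MDA-MB-231 library.

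Of the fibronectin, tenascin, thrombospondin and vitronectin genes, 5 of 8 were tested and THBS1 alone was called. THBS1 encodes thrombospondin-1, a matricellular protein that binds CD36 and CD47 and can release active TGF-beta from its latent complex. In MDA-MB-231 it stood at 156, 202 and 190.4 CPM in WT and 439.5, 347 and 445 CPM in KO, and all KO libraries were above all WT libraries. The log2 fold change was 1.17 ± 0.16 (2.24-fold, edgeR adjusted p = 2.43e-04). In Hs578T the libraries held 236, 221 and 164 CPM in WT and 199, 165 and 241 CPM in KO, which overlapped. The difference between the lines was -1.20 ± 0.22 (edgeR interaction, adjusted p = 0.00303). That call was lost without Hs578T WT replicate 1 or 2 or KO replicate 1 or 2, with an adjusted p of 0.0101 to 0.0112.

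TNC encodes tenascin-C, a glycoprotein of embryonic and tumor stroma. It was not called within either line, but its change differed between them. With sets of consecutive label numbers as a block, or with no filter on low counts, it was called in both lines, and with each line fitted alone in MDA-MB-231. The Hs578T libraries held 93.9, 43.8 and 30.0 CPM in WT and 13.3, 40.3 and 14.7 CPM in KO, which overlapped through KO replicate 2. The MDA-MB-231 libraries held 32.1, 42.7 and 48.4 CPM in WT and 106, 102 and 94.5 CPM in KO, with no overlap. The log2 fold changes were -1.28 ± 0.39 (edgeR adjusted p = 0.0407) and 1.29 ± 0.38 (adjusted p = 0.0432), and their difference was -2.57 ± 0.55 (adjusted p = 0.00744). This last call was lost on leaving out Hs578T WT replicate 1 or 2, Hs578T KO replicate 1 or 3, MDA-MB-231 WT replicate 1 or 3, or any MDA-MB-231 KO library, where the difference was -2.73 to -1.97 and the adjusted p 0.0121 to 0.0265.

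FN1, fibronectin, was the most abundant member in Hs578T WT by CPM and per length, at 4596 ± 718 CPM and 265 ± 41.5 RPKM. It took 43.7 ± 2.32% of the members' summed CPM in WT and 38.5 ± 4.42% in KO (SD, n = 3). In Hs578T its log2 fold change was -0.33 ± 0.18, beside -0.01 ± 0.18 in the other line, and neither passed the test (edgeR adjusted p = 0.257 and 1.00). THBS3 and THBS4 were not called. THBS2 and VTN, vitronectin, were under the filter, with 5 counts each in the Hs578T WT libraries together. TNXB was under it too, but it lies in a stretch of chromosome 6 where RPS18, a ribosomal protein gene of every cell, held 0 counts in all libraries, so that its low count cannot be read as a lack of RNA.

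The matricellular group held both genes that fell in both lines. SPOCK1 encodes testican-1, a secreted proteoglycan related to SPARC. In Hs578T it stood at 81.0, 49.5 and 25.2 CPM in WT and 16.3, 10.1 and 9.72 CPM in KO. In MDA-MB-231 it stood at 15.3, 32.7 and 33.4 CPM in WT and 7.20, 7.89 and 9.18 CPM in KO. The groups did not overlap in either line, although the WT libraries were spread widely, with Hs578T replicate 3 and MDA-MB-231 replicate 1 the lowest. The log2 fold changes were -2.12 ± 0.36 (edgeR adjusted p = 9.19e-04) and -1.75 ± 0.38 (adjusted p = 0.00774). Without those low WT libraries they were -2.45 and -2.04, and both remained called. The MDA-MB-231 call was lost without WT replicate 3, the WT library with no number, any KO library of that line, Hs578T WT replicate 2 or Hs578T KO replicate 2 or 3, where the log2 fold change was -1.83 to -1.58 and the adjusted p 0.0120 to 0.0398.

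NOV, or CCN3, is a secreted CCN family protein that binds integrins. It rose in Hs578T from 4.65, 6.58 and 8.21 CPM in WT to 20.3, 25.032 and 21.9 CPM in KO, with no overlap (1.80 ± 0.18, edgeR adjusted p = 7.16e-06). In MDA-MB-231 it stood at 14.7, 16.2 and 13.2 CPM in WT and 20.2, 17.8 and 21.8 CPM in KO, which did not overlap either but missed the threshold (0.43 ± 0.17, adjusted p = 0.123). The difference of 1.37 ± 0.24 between the lines passed the interaction test (adjusted p = 0.00222). In the unedited state NOV was lower in Hs578T than in MDA-MB-231, and in CD44 KO the means were 22.4 ± 2.41 and 19.9 ± 2.02 CPM (SD, n = 3).

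MATN2 encodes matrilin-2, an adaptor protein that forms filaments between other matrix molecules. The Hs578T libraries held 25.037, 22.5 and 13.5 CPM in WT and 6.74, 8.88 and 7.42 CPM in KO. The MDA-MB-231 libraries held 18.3, 22.1 and 19.3 CPM in WT and 8.98, 8.69 and 9.58 CPM in KO. Neither line showed overlap between its groups. The log2 fold changes were -1.40 ± 0.20 (edgeR adjusted p = 1.63e-04) and -1.13 ± 0.19 (adjusted p = 0.00152), and the latter missed the threshold without MDA-MB-231 KO replicate 2 (adjusted p = 0.0128). The difference between the lines was -0.27 ± 0.27 for MATN2 and -0.37 ± 0.52 for SPOCK1, and neither passed the interaction test (adjusted p = 0.606 and 0.735).

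The remaining matricellular genes were not called in either line. SPARC, which binds collagen and calcium, was the second most abundant member per length in Hs578T WT, at 226 ± 59.0 RPKM in WT and 217 ± 21.5 RPKM in KO. ECM1, which binds other matrix glycoproteins, stood at 32.5, 35.5 and 29.5 CPM in Hs578T WT and 20.4, 28.9 and 20.044 CPM in KO, and at 23.2, 26.5 and 19.0 CPM in MDA-MB-231 WT and 30.2, 29.7 and 41.9 CPM in KO. Neither passed the test (edgeR adjusted p = 0.074998 and 0.0545), nor did their difference of -1.04 ± 0.24 (adjusted p = 0.0134). SPP1, osteopontin, was at 40.9 ± 17.8 CPM in Hs578T WT and 33.5 ± 6.20 CPM in KO. CCN4 was at 45.2 ± 20.7 and 39.0 ± 8.28 CPM there and at 0 counts in all MDA-MB-231 libraries. SPARCL1, SPOCK2 and POSTN, which encodes periostin, were under the filter.

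The elastic fibre genes held 9 tested members of 12, of which EFEMP1, FBLN1, FBLN5 and MFAP2 were called in at least 1 line. EFEMP1, or fibulin-3, fell in Hs578T from 91.7, 62.7 and 28.6 CPM in WT to 13.959, 20.5 and 16.4 CPM in KO. WT replicate 3 was the lowest of its group but lay above all KO libraries. The log2 fold change was -1.84 ± 0.29 (edgeR adjusted p = 5.36e-04), and -2.18 without that library. In MDA-MB-231 EFEMP1 was at 14.998, 14.8 and 16.6 CPM in WT and 15.8, 13.7 and 11.3 CPM in KO, close to the Hs578T KO level, and was not called. The difference between the lines was -1.66 ± 0.42 and missed the threshold (adjusted p = 0.0217).

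FBLN1, a fibulin that binds fibronectin, and FBLN5, which tethers elastic fibres to cells, fell in MDA-MB-231, where both were scarce. FBLN1 stood at 3.09, 3.81 and 1.96 CPM in WT and 1.27, 1.38 and 1.38 CPM in KO, and FBLN5 at 4.97, 4.54 and 5.61 and 2.37, 2.22 and 1.88 CPM, with no overlap for either gene. The log2 fold changes were -1.14 ± 0.23 (edgeR adjusted p = 0.00510, 105 counts in WT and 55 in KO) and -1.21 ± 0.24 (adjusted p = 0.00412, 177 and 89 counts). The FBLN1 call was lost without MDA-MB-231 WT replicate 1 or 3 or any KO library of that line (log2 fold change -1.16 to -0.91, adjusted p 0.0161 to 0.0301). The FBLN5 call was lost without WT replicate 3, the WT library with no number or any KO library of that line (-1.28 to -1.12, adjusted p 0.0105 to 0.0247). In Hs578T, FBLN1 was abundant, at 178, 185 and 164 CPM in WT and 136, 150.2 and 145 CPM in KO, which did not overlap but missed the threshold (edgeR adjusted p = 0.0838). FBLN5 was close to the detection limit there, with 10 counts in the WT libraries together and 8 in KO.

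MFAP2 encodes a small microfibril glycoprotein that binds fibrillin. It rose in both lines, with 16.4, 18.5 and 20.4 CPM in Hs578T WT and 29.3, 26.3 and 32.7 CPM in KO. In MDA-MB-231 it stood at 12.2, 11.5 and 13.008 CPM in WT and 19.0, 21.0 and 25.9 CPM in KO. All KO libraries of a line were above all of its WT libraries. The log2 fold changes were 0.67 ± 0.13 (edgeR adjusted p = 0.00336) and 0.84 ± 0.14 (adjusted p = 0.00137), and they did not pass the test of a difference (-0.17 ± 0.20, adjusted p = 0.663). The Hs578T call was lost without WT replicate 1 or 2 or KO replicate 1 or 3 (log2 fold change 0.59 to 0.68, adjusted p 0.0136 to 0.0249). The MDA-MB-231 call narrowly missed the threshold when that line was fitted alone (adjusted p = 0.0106).

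The nearest member outside the threshold in Hs578T was EMILIN2, a glycoprotein of elastic fibres and vessels. It stood at 49.2, 74.4 and 119 CPM in WT and 28.2, 53.0 and 31.9 CPM in KO, where KO replicate 2 overlapped the WT range (log2 fold change -1.09 ± 0.26, edgeR adjusted p = 0.0101). The largest adjusted p among the called members of that line was 0.00336, for MFAP2. FBN1, fibrillin-1 of the microfibril core, was at 128 ± 29.9 CPM in Hs578T WT and 156 ± 50.1 CPM in KO, and was not called in either line. ELN, elastin itself, was scarce in Hs578T, with 4.37, 3.70 and 2.79 CPM in WT and 0.722, 1.79 and 2.39 CPM in KO (edgeR adjusted p = 0.0542), and a single count was found over all 6 MDA-MB-231 libraries. FBN2, FBLN2 and MFAP5 were under the filter.

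Among the small leucine-rich proteoglycans, which bind collagen fibrils and set their width, LUM was called. LUM, lumican, rose in Hs578T from 3.19, 1.89 and 2.37 CPM in WT to 9.63, 15.6 and 8.36 CPM in KO, with no overlap (2.17 ± 0.29, edgeR adjusted p = 5.27e-04). It held 97 counts in the WT libraries together, 471 in KO and 0 in all MDA-MB-231 libraries. For the 2 tested genes within 1 Mb of LUM the median log2 fold change there was 1.56. BGN, biglycan, was at 75.4 ± 11.6 CPM in Hs578T WT and 65.1 ± 15.2 CPM in KO and was not called. DCN, decorin, was under the filter.

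All 10 lysyl oxidase and collagen hydroxylase genes were tested, and LOXL3 was called. LOXL3 encodes a secreted amine oxidase that cross-links collagen and elastin. In Hs578T it fell from 95.6, 80.9 and 55.013 CPM in WT to 7.70, 10.3 and 8.87 CPM in KO, and the lowest WT library, replicate 3, was still far above the highest KO library. The log2 fold change was -3.10 ± 0.20 (8.58-fold lower, edgeR adjusted p = 1.40e-07). In MDA-MB-231 the libraries held 7.11, 6.08 and 4.10 CPM in WT and 4.9982, 4.61 and 4.15 CPM in KO, which overlapped. The difference between the lines was -2.77 ± 0.32 (edgeR interaction, adjusted p = 6.10e-05). The Hs578T KO level of 2.05 ± 0.298 RPKM was near the 1.32 ± 0.351 RPKM of unedited MDA-MB-231 (SD, n = 3).

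The other enzymes did not pass the test in either line. LOX, the founding lysyl oxidase, was at 70.5, 74.5 and 78.4 CPM in Hs578T WT and 103, 145 and 99.6 CPM in KO, with no overlap and an edgeR adjusted p of 0.0494 (0.64 ± 0.21). LOXL1, LOXL2, P4HA1, P4HA2, PLOD1, PLOD2 and PLOD3 had log2 fold changes between -0.34 and 0.42 in Hs578T and between -0.44 and 0.23 in MDA-MB-231. PLOD1, a lysyl hydroxylase of collagen, was the most abundant of them per length, at 136 ± 13.1 RPKM in Hs578T WT and 138 ± 12.4 RPKM in KO. PLOD2 and LOXL2 were not called between the unedited lines, PLOD2 at 25.3 ± 1.62 RPKM in Hs578T and 26.3 ± 9.43 RPKM in MDA-MB-231 and LOXL2 at 39.9 ± 4.23 and 37.8 ± 5.08 RPKM. LOXL4 was measured in MDA-MB-231, at 7.24 ± 1.59 CPM in WT and 6.06 ± 1.95 CPM in KO, and held 2 counts in all Hs578T libraries.

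**Figure D3:**
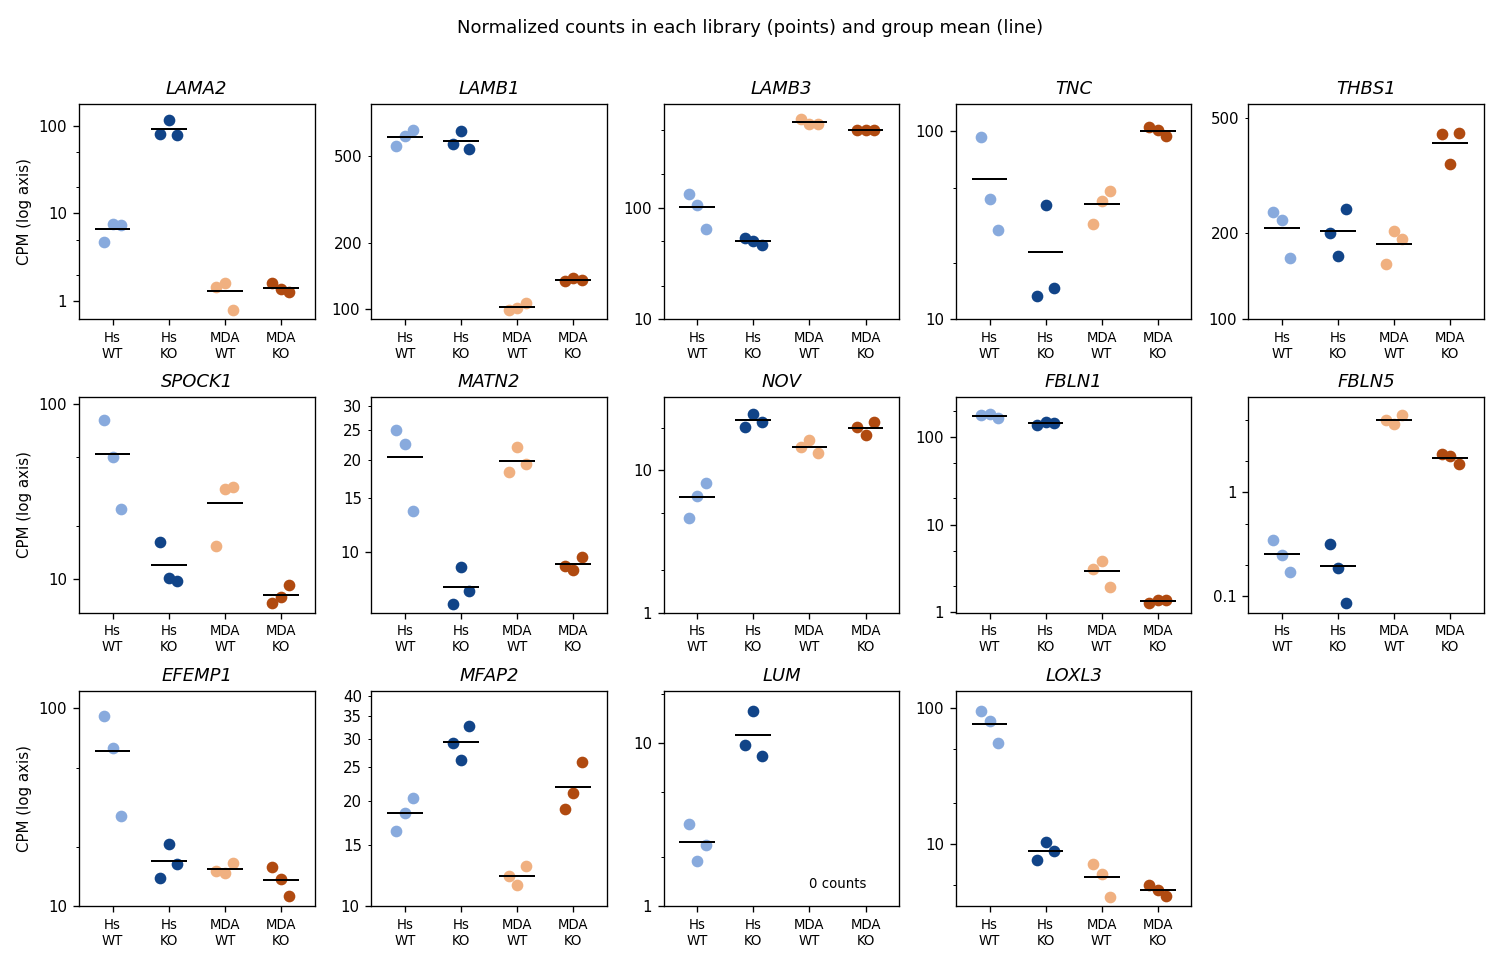
CPM (log axes) of the 13 members called in at least 1 line and of TNC, with 1 point for each library and a line at each group mean, for Hs578T (Hs) and MDA-MB-231 (MDA) CD44 WT and KO. SPOCK1 and MATN2 are lower and MFAP2 is higher in all KO libraries of both lines, while LAMA2 rises to 91.5 ± 21.1 CPM and LOXL3 falls to 8.96 ± 1.2996 CPM in Hs578T KO.

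The change after CD44 loss differed between the lines for 5 of the 42 tested members, which is 11.9% beside 4.12% of all genes. The Hs578T change minus the MDA-MB-231 change was positive for LAMA2 and NOV and negative for TNC, THBS1 and LOXL3. Without Hs578T WT replicate 2 or Hs578T KO replicate 1 the count was 3, and LAMA2, NOV and LOXL3 were called whichever library was left out. Over all genes, 369 differences were called higher and 284 lower. These were 235 and 183 without that WT library, and 265 and 171 without that KO library. DESeq2 called 8, adding ECM1, EMILIN2 and LAMB1, and 11 were called with no filter on low counts. Over all genes DESeq2 called 601 higher and 578 lower, and the fit with no filter 707 and 648.

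The unedited lines differed from each other in more members than CD44 KO differed from WT in either line. Of the 42 tested members, 29 differed between Hs578T and MDA-MB-231 CD44 WT, which is 69.0% beside 61.5% of all genes. Of these, 23 were higher in Hs578T (54.8% of the tested members beside 32.2% of all genes) and 6 were higher in MDA-MB-231 (14.3% beside 29.4%). The members' summed CPM was 10484 ± 1171 in Hs578T WT and 3131 ± 191 in MDA-MB-231 WT (SD, n = 3).

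The genes higher in Hs578T included fibronectin, SPARC and most of the elastic fibre genes. FN1 was 16.7-fold higher (log2 difference 4.06 ± 0.21, edgeR adjusted p = 1.12e-10), and SPARC was at 1094 ± 285 CPM against 0.519 ± 0.322 CPM (log2 difference 11.04 ± 0.35, adjusted p = 5.95e-13). CCN4 and LUM had 0 counts in MDA-MB-231 WT and were at least 544-fold and at least 29.6-fold higher in Hs578T WT, taking 3 counts over the group as the floor. BGN held 2923 counts in Hs578T WT and 2 in MDA-MB-231 WT, a ratio of 1340 with a 95% counting interval of 371 to 11070. All 9 tested elastic fibre genes differed, beside 61.5% of all genes. Of these, 8 were higher in Hs578T, beside 32.2% of all genes, among them FBLN1 with a log2 difference of 5.88 ± 0.15. Some genes passed the filter only through Hs578T libraries, such as ELN with 141 counts in Hs578T WT and 1 in MDA-MB-231 WT. SPP1 (7.43 ± 0.47), THBS3 (4.46 ± 0.21) and LOXL3 (3.74 ± 0.22) were also higher there.

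The 6 members higher in MDA-MB-231 were LAMA3, LAMA4, LAMB3, FBLN5, NOV and LOXL4. LAMA3 held 23.5, 37.8 and 25.5 CPM in MDA-MB-231 WT and 1.18, 0.658 and 0.254 CPM in Hs578T WT (log2 difference -5.30 ± 0.31, edgeR adjusted p = 5.58e-10). LAMB3 was 5.84-fold higher in MDA-MB-231 (adjusted p = 5.64e-09). LOXL4 held 256 counts in MDA-MB-231 WT and 2 in Hs578T WT, a ratio of 140 with an interval of 38.3 to 1159. These intervals cover counting error only.

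**Figure D4:**
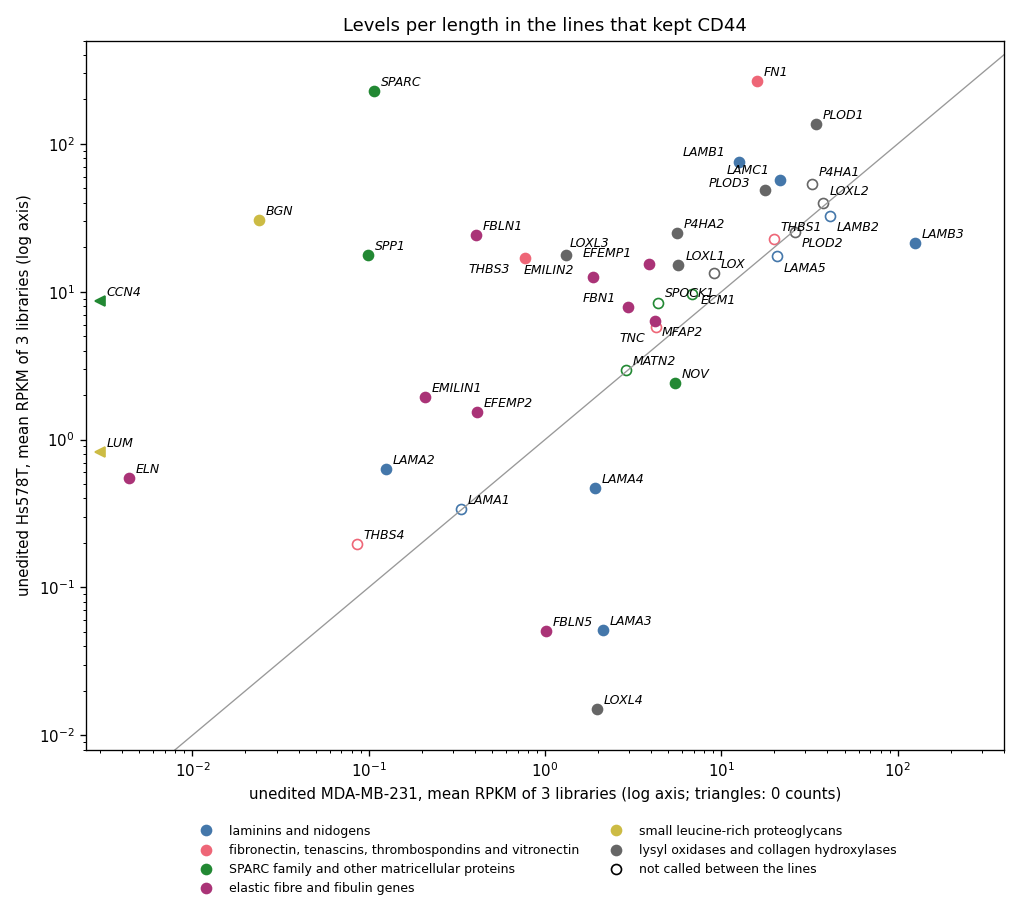
Mean RPKM of each tested member in unedited MDA-MB-231 (x axis) and unedited Hs578T (y axis), both log axes, with n = 3 libraries in each, the line of equal levels and colors for the classes. Filled points are the 29 members called between the lines; FN1 and SPARC top the Hs578T axis at 265 ± 41.5 and 226 ± 59.0 RPKM, and LAMB3 is furthest right at 126 ± 8.14 RPKM.

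The order of levels per length also differed. In Hs578T WT the first 5 were FN1, SPARC, PLOD1, LAMB1 and LAMC1, at 265 ± 41.5, 226 ± 59.0, 136 ± 13.1, 75.2 ± 6.45 and 56.7 ± 1.29 RPKM (SD, n = 3), where FN1 and SPARC lay within their spread of each other. In MDA-MB-231 WT they were LAMB3, LAMB2, LOXL2, PLOD1 and P4HA1, at 126 ± 8.14, 41.4 ± 4.74, 37.8 ± 5.08, 34.4 ± 3.08 and 32.7 ± 12.2 RPKM, where those after LAMB3 lay within their spread of their neighbors. After CD44 loss THBS1 moved from place 9 to place 2 in MDA-MB-231, and in Hs578T LAMA2 moved from place 35 to place 23 and LOXL3 from place 16 to place 31 of 42. In MDA-MB-231 KO, THBS1 at 44.8 ± 6.03 RPKM lay within its spread of LOXL2, in place 3 at 44.3 ± 5.43 RPKM. In Hs578T KO, LAMA2 and LOXL3 lay within their spread of NOV and SPOCK1.

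Of 47 other matrix genes, a list chosen with earlier results of these data known, 30 were tested. In Hs578T 2 rose and 4 fell, which is 20% beside 7.51% of all genes, and in MDA-MB-231 3 rose and 2 fell, which is 16.7% beside 4.62%. TGM2, the cross-linking transglutaminase, and COLGALT2, which adds galactose to collagen, were called in both lines in opposite directions. TGM2 fell in Hs578T from 2.39 ± 1.17 to 0.467 ± 0.0356 CPM and rose in MDA-MB-231 from 237 ± 42.5 to 546 ± 50.7 CPM, and the lines differed by -3.54 ± 0.45 (edgeR interaction, adjusted p = 1.33e-04). COLGALT2 rose in Hs578T (1.25 ± 0.19) and fell in MDA-MB-231 (-0.69 ± 0.15). TGFBI, an integrin-binding protein induced by TGF-beta, rose in MDA-MB-231 from 5.48 ± 1.12 to 18.9 ± 3.98 CPM (1.78 ± 0.24, adjusted p = 2.62e-04). P3H2, a collagen prolyl hydroxylase, rose in Hs578T (1.10 ± 0.13), while FRAS1 (-4.36 ± 0.84), MATN3 (-2.89 ± 0.53) and TGM2 (-2.34 ± 0.43) were the largest falls there. In MDA-MB-231 MMRN2 rose (2.69 ± 0.45, 7 counts in WT and 53 in KO) and TNN was at least 11.6-fold lower, with 30 counts in WT and 0 in KO.

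Of 27 receptors that bind these proteins or collagens, a list chosen in the same way, 24 were tested. DDR1, under the filter with 0 counts in all libraries, lies in the stretch of chromosome 6 described for TNXB. Its count cannot be read as a lack of RNA either. In Hs578T 4 rose and 5 fell, which is 37.5% beside 7.51% of all genes, and in MDA-MB-231 1 rose and 1 fell, which is 8.33% beside 4.62%. The collagen- and laminin-binding ITGA1 rose in Hs578T from 3.27 ± 1.42 to 18.6 ± 5.65 CPM (2.53 ± 0.34, edgeR adjusted p = 1.20e-04), as did collagen-binding ITGA10 (1.83 ± 0.39) and CD36, a thrombospondin receptor, from 3 counts to 74 (a ratio of 23.4 with a counting interval of 7.71 to 116). The falls were led by ITGA8 (-3.39 ± 0.54), by ITGB3 of the vitronectin receptor (-1.71 ± 0.27) and by BCAM, which binds LAMA5 (-1.13 ± 0.18). In MDA-MB-231 ITGB8 rose (1.58 ± 0.31) and SDC4, a fibronectin co-receptor, fell (-0.50 ± 0.08).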

How the data were processed

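Stranded mRNA libraries were sequenced from the 4 groups. Per the study's methods and the submitters' processing notes, the authors aligned reads to GRCh38 with HISAT2 2.1.0 and counted them over GENCODE genes with featureCounts 1.6.2, set to take strand into account in the file's header. The deposited values are raw read counts per gene and library, not normalized. Genes over 1 CPM in at least 2 libraries and with at least 300 nt of exon were kept (15836 of 58381). The methods word the length limit as under 300 nt, which would remove CD44. Counts were scaled by TMM and fitted with edgeR 4.0.16 (R 4.3.3, limma 3.58.1), by the legacy quasi-likelihood method, to 4 group means over all 12 libraries, with Benjamini-Hochberg adjustment over all genes tested. DESeq2 1.42.0, other scalings, filters, fits and thresholds, a replicate block and leaving out each library were the alternatives. The fit was tested on simulated counts. Replicates of a group differed by a chi-square of 4.68 to 32.6 per gene, so none was a duplicate within sampling noise.

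The members, classes, marker lists and other gene lists were chosen with earlier results of these data known. Values in every library are given for members called in either line (FBLN5 and LUM by their counts in the line where they were near 0), largest fold first within a class, and the most abundant members are named. Other matrix genes and receptors are named when called in both lines or among the 3 largest folds in each direction and line. The values of TNC, EMILIN2, LAMA3, LAMA5, ECM1, LOX, ELN, SPP1, CCN4 and LOXL4 were added after they were seen. Intervals of count ratios cover counting error only. Promoter windows are RefSeq's (GRCh38.p14), and 42 of the 55 members, 32 of them tested, had one.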

Additional observations from a re-analysis of the deposited data

Results flagged for a closer look

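The edgeR interaction test found that the change after CD44 loss differed between the lines for 5 members, and each value below is the Hs578T log2 fold change minus that of MDA-MB-231. LAMA2 differed by 3.69, higher in CD44 KO in 3 of 3 Hs578T libraries than in any WT library, and overlapping in MDA-MB-231. LOXL3 differed by -2.77, with all Hs578T KO libraries below all WT libraries and overlap in MDA-MB-231. NOV differed by 1.37, with the KO libraries above the WT libraries in both lines. TNC differed by -2.57 and THBS1 by -1.20, both with all MDA-MB-231 KO libraries above all WT libraries and with overlap in Hs578T.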

How the results depend on the processing

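No alternative reversed any of the 21 calls of single members within a line or between the lines. Of these, 11 were kept under every alternative, and of 499 values under alternatives 442 stayed past the threshold and 57 did not. These values include a threshold of 0.05 and a log2 fold change of at least 1, both applied to the main fit. Neither could reverse a direction, and a call could not be lost at 0.05. For a call within a line, leaving out a library of the other line kept all the libraries compared. Robust estimation kept the log2 fold change of the main fit. Those fits could therefore hardly reverse a direction either. In Hs578T, 15 members were called with no filter on low counts, and 7 to 11 when 1 library was left out. In MDA-MB-231, 2 to 7 were called when 1 library was left out, and 5 when each line was fitted alone, where FBLN1, LAMB1 and MFAP2 were lost. For the difference between the lines the count was 8 with DESeq2, 11 with no filter, 10 with the threshold at 0.05, and 3 to 7 when 1 library was left out. Robust estimation lost SPOCK1 in MDA-MB-231 (adjusted p = 0.0310) and the TNC difference (adjusted p = 0.0471). Between the unedited lines 28 to 37 members were called over all alternatives, and 29 to 32 when 1 library was left out. Scaling by library size alone moved the median log2 difference of all genes between the unedited lines from 0.04 to 0.16. Over all genes, MDA-MB-231 gave 312 higher and 419 lower calls, but 567 and 571 with DESeq2, 695 and 658 with no filter, 107 and 208 when fitted alone, and 162 and 274 with the replicate block. Hs578T gave 577 and 612, but 1014 and 957 with no filter. With 1 library left out it gave 309 and 296 at the fewest, without Hs578T KO replicate 2. The most were 802 and 883, without MDA-MB-231 WT replicate 1. The difference gave 369 and 284, but 601 and 578 with DESeq2, 707 and 648 with no filter, and 872 and 798 at 0.05. Between the unedited lines 5092 and 4650 were called, but 6068 and 5083 with no filter and 5859 and 5398 at 0.05. With no filter more genes were tested, and leaving out a library leaves fewer samples; otherwise the cause was not tested.

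The replicate numbers did not pair the samples: deviations of same-numbered libraries from their group means correlated at -0.06, 0.02 and -0.10 in Hs578T and at 0.0079 and 0.16 in MDA-MB-231. With the replicate block, and without the library that has no number, 10 members were called in Hs578T, 4 in MDA-MB-231, 5 for the difference between the lines and 32 between the unedited lines. Over all genes that fit called 539 higher and 537 lower in Hs578T and 162 and 274 in MDA-MB-231. It called 280 and 191 for the difference and 4588 and 4259 between the unedited lines. Sets of consecutive label numbers (correlations 0.03, 0.10 and 0.13, and 0.10, 0.16 and 0.0079) gave 10, 8, 5 and 32 as a block, with TNC called in both lines. Over all genes this block also called more, 619 higher and 686 lower in Hs578T and 368 and 456 in MDA-MB-231. It called 410 and 332 for the difference and 5212 and 4775 between the unedited lines.

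Members under the filter reached at most 0.925 CPM in any library. With no filter MFAP5 and SPARCL1 of these were called between the unedited lines, at least 5.20-fold and at least 7.33-fold higher in Hs578T over a floor of 3 counts.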

Other observations

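Summed over the 8 genes of the fibronectin, tenascin, thrombospondin and vitronectin class, CPM was 503 ± 80.9 in MDA-MB-231 CD44 WT and 788 ± 37.0 in CD44 KO (SD, n = 3), with THBS1 taking 5.82 ± 0.452% of the summed CPM of all members in WT and 12.7 ± 2.00% in KO. In Hs578T the same class summed to 4939 ± 768 CPM in WT and 3965 ± 1046 CPM in KO, which overlapped. The laminin and nidogen class summed to 1684 ± 46.4 and 1633 ± 168 CPM in Hs578T WT and KO, and to 1511 ± 78.6 and 1387 ± 80.01 CPM in MDA-MB-231. The lysyl oxidase and hydroxylase class summed to 2007 ± 111 and 2096 ± 164 CPM in Hs578T and to 933 ± 132 and 898 ± 138 CPM in MDA-MB-231. These sums were not tested.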
